A study of Arabidopsis thaliana with 12 samples.

Results

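The response of wild-type Arabidopsis thaliana roots to low phosphate was followed across the transcriptome. It was read from 6 of the 12 libraries of the series: 3 from roots at low phosphate (6.25 µM) and 3 from roots at normal phosphate (1250 µM), numbered 2, 3 and 4 in both groups. All wild-type plants were of the Columbia-0 background and had spent 10 days on solid MS medium with the stated phosphate supply. The other 6 libraries came from OX3, a line that overexpresses the soybean vacuolar pyrophosphatase gene GmVP2, under the same supplies; they entered the fit for their spread and for a comparison at the end only. Of 25941 genes in the deposited table, the 18910 with a mean of at least 1 RPKM (reads per kilobase of transcript, scaled to library depth) over the 12 libraries were tested, and 7031 were not.

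Phosphate is the form in which roots take up phosphorus, and it is often scarce in soil. When it runs short, the factor PHR1 and its relatives are released from SPX proteins, bind a short promoter element called P1BS and turn on genes that scavenge, import and save phosphate. Among their targets are microRNAs that lower PHO2, a ubiquitin-conjugating enzyme, and NLA, a ubiquitin ligase, which otherwise help to remove phosphate transporters. Membrane phospholipids are partly replaced by galactolipids and sulfolipids, which carry no phosphate.

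The 6 wild-type libraries held 17670350 to 20418541 reads each, recovered from the RPKM values. In a principal component analysis of these libraries, 86.3% of the variance lay on the axis that parted the phosphate levels and 4.6% on the next. All 9 root markers were expressed, with summed levels of 4560 to 5350 RPKM at low phosphate and 8590 to 10100 RPKM at normal phosphate. Of them 8 were higher at low phosphate and 1, the abundant PYK10, was lower. Among the 8, the calls of CASP1, SCR and PLT1 were lost in some fits with a library left out. The 9 shoot markers outside photosynthesis in the table were all below the minimum for testing, with summed levels of 0.629 to 0.856 RPKM at low phosphate and 0.705 to 0.748 RPKM at normal phosphate. Photosynthesis genes were present at summed levels of 529 to 629 RPKM at low phosphate and 1100 to 1250 RPKM at normal phosphate, and 34 of their 43 tested members were lower at low phosphate against 3 higher. Of 10 tested clock genes 5 were higher and 1 was lower. The part of these genes in the results below was not tested. In RNA from whole roots, fewer cells of a type and less RNA per cell cannot be told apart.

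Low phosphate moved a large share of the root transcriptome, but mostly by small amounts. At a limma adjusted p below 0.05 (Benjamini-Hochberg over all genes tested), 46.0% of the tested genes were called, 4601 of them higher (24.3%) and 4091 lower (21.6%). Counts of called list members are to be read against these shares. Fold changes are given as log2 of low over normal phosphate, on RPKM plus a pseudocount of 1. Only 1473 genes (7.79%) were called with a change of at least 1 on that scale, 846 higher (4.47%) and 627 lower (3.32%). The largest changes were lopsided: 32 genes were higher by 4 or more and 183 by 2 to 4, against 5 and 89 genes lower by as much. For 53.0% of the tested genes the low and normal phosphate libraries stood apart without overlap (27.8% higher, 25.2% lower at low phosphate). The median change over all tested genes was 0.02. The 846 genes higher by at least 1 took 6.72% to 7.73% of all reads at low phosphate and 1.79% to 1.90% at normal phosphate. The 627 genes lower by at least 1 took 2.00% to 2.20% of reads at low phosphate and 6.23% to 6.59% at normal phosphate.

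**Figure D1:**
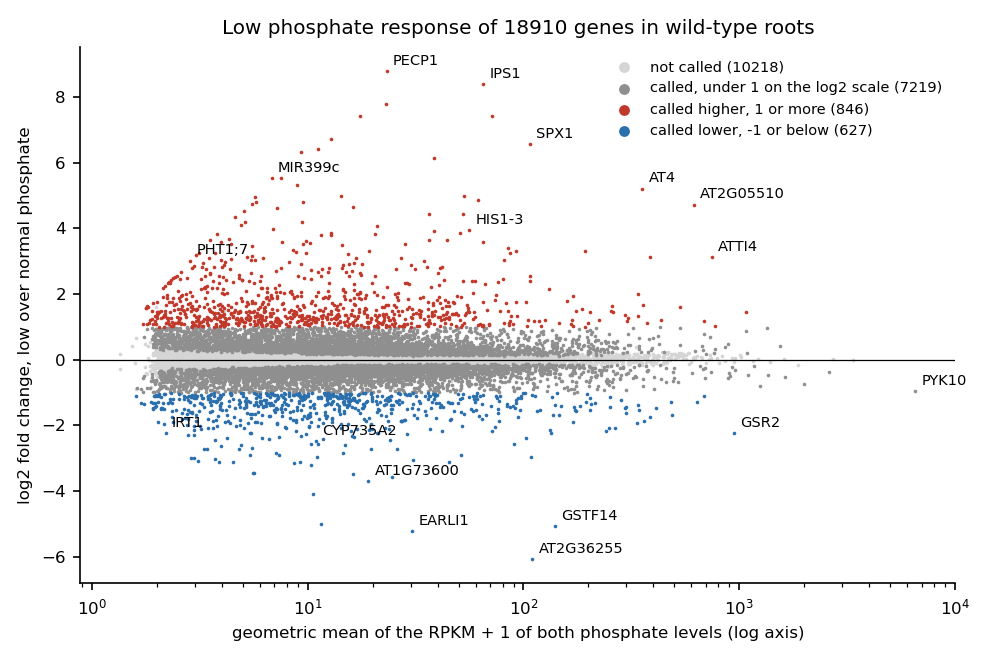
Each point is 1 of the 18910 tested genes, with its level over both phosphate levels in wild-type roots on the x axis (geometric mean of RPKM + 1, log axis) and its log2 fold change, low over normal phosphate, on the y axis. The 846 genes called higher by 1 or more reach 8.78, and the 627 called lower by 1 or more reach -6.06.

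The 12 largest rises were led by genes of phosphate recovery and phosphate sensing. PECP1 (AT1G17710), a phosphatase that frees phosphate from phosphocholine and phosphoethanolamine, had 606, 440 and 418 RPKM in the low phosphate libraries, against 0.285, 0.0376 and 0 RPKM in the normal phosphate libraries (log2 8.78 ± 0.14, SE, limma adjusted p = 8.13e-15). IPS1 (AT3G09922), a non-coding RNA that decoys the microRNA miR399, had 1389, 1140 and 1042 RPKM at low phosphate, against 2.80, 2.19 and 2.61 RPKM at normal phosphate (8.39 ± 0.11, limma adjusted p = 1.87e-15). SPX3 (AT2G45130), an SPX protein that restrains PHR1, had 406, 323 and 296 RPKM at low phosphate, against 0.535, 0.338 and 0.803 RPKM at normal phosphate (7.78 ± 0.12, limma adjusted p = 5.95e-15). In all 3 every low phosphate library stood far above every normal phosphate library, and low phosphate replicate 2 was the highest. OCT1, an organic cation and carnitine transporter, had 265, 231 and 192 RPKM at low phosphate, against 0.328, 0.266 and 0.379 RPKM at normal phosphate (7.43 ± 0.09). PS2, a phosphatase for pyrophosphate and phosphoethanolamine, had 1071, 873 and 840 RPKM at low phosphate, against 5.80, 3.32 and 4.41 RPKM at normal phosphate (7.41 ± 0.16). OCT1 overlaps another annotated gene, AT1G73230, whose own change was -0.01. The sources used here do not say whether reads were counted by strand. Genes named below that overlap another annotated gene include NLA, PHR1, PAP17, PYK10 and PLDZ2. The gene that PLDZ2 overlaps, AT3G05640, was itself higher by 1.25. SPX1, another SPX protein, had 1175, 973 and 943 RPKM at low phosphate, against 11.9, 8.44 and 9.76 RPKM at normal phosphate (6.55 ± 0.11). PS2 and SPX1, which were already measurable at normal phosphate, thus ended near the level of IPS1. PECP1 averaged 0.108 RPKM at normal phosphate, below its floor of 3 reads per library, 0.114 RPKM. SPX3 (0.559 RPKM) and OCT1 (0.324 RPKM) also averaged below 1 RPKM there. PECP1, SPX3 and OCT1 passed the filter on mean level only through low phosphate libraries, so the direction of their change follows from that choice.

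Less familiar genes stood among them. AT3G25240, annotated only by a domain of unknown function, had 122, 99.1 and 87.7 RPKM at low phosphate, against 0.174, 0.276 and 0.151 RPKM at normal phosphate (6.42 ± 0.11). AT2G45135, a RING/U-box protein, had 92.9, 85.8 and 67.8 RPKM at low phosphate, against 0.124, 0 and 0 RPKM at normal phosphate (6.31 ± 0.10). It starts 970 bases beyond the end of SPX3 on the same strand, so the pair are neighbours among the 12. AT5G20790, an uncharacterized protein, had 381, 275 and 313 RPKM at low phosphate, against 4.56, 2.86 and 3.27 RPKM at normal phosphate (6.15 ± 0.14). The galactolipid synthase MGD3 and the microRNA genes MIR827 and MIR399c, described below, completed the 12. AT3G25240, AT2G45135 and MGD3 averaged 0.201, 0.0414 and 0.250 RPKM at normal phosphate. They too passed the filter only through low phosphate libraries, so their direction follows from that choice. Of the 32 genes higher by 4 or more, 7 overlap another annotated gene (21.9%), against 25.5% of all genes tested.

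**Figure D2:**
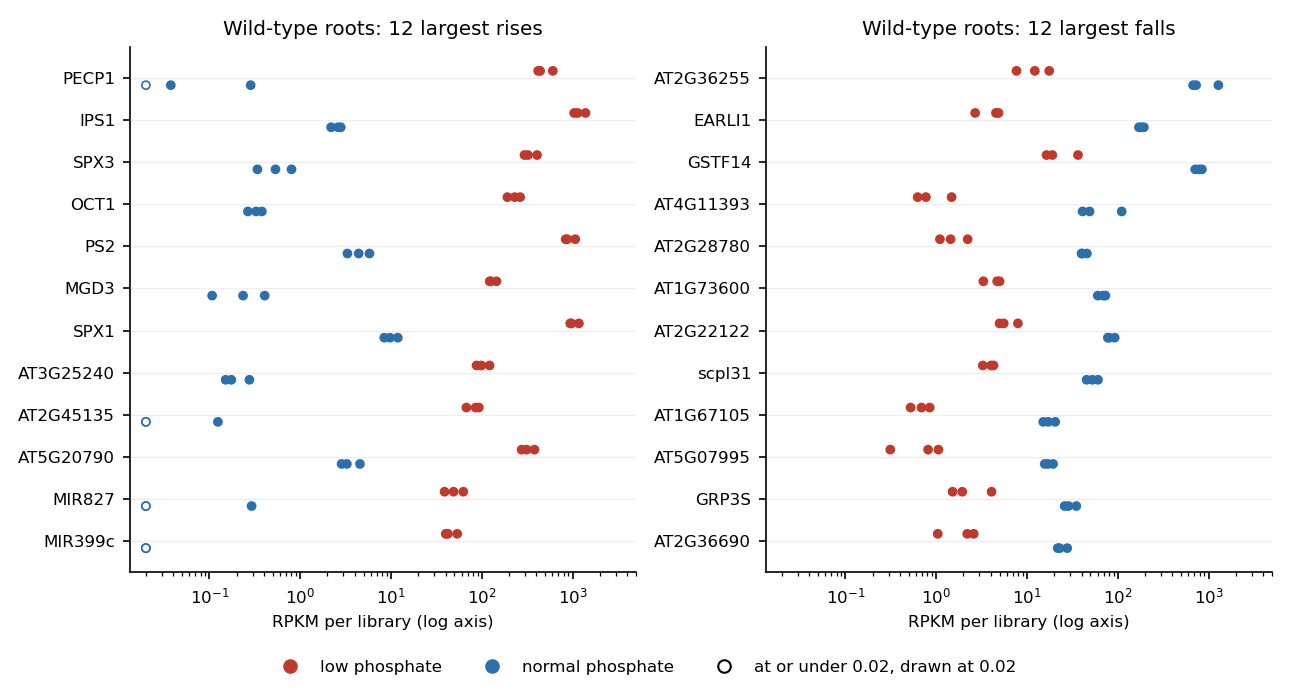
RPKM in each wild-type library (log axis) of the 12 genes with the largest rises (left) and the 12 with the largest falls (right) among called genes without overlap of the groups; red points are the 3 low phosphate libraries, drawn above the blue points of the 3 normal phosphate libraries. MIR399c is at 0 in all normal phosphate libraries, and AT2G36255 lies at 7.67 to 17.6 RPKM at low phosphate against 677 to 1283 RPKM at normal phosphate.

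The microRNA branch of the response was seen in the primary transcripts of the microRNAs, in their decoys and in their targets. Reads in an annotated hairpin report the precursor transcript, not the mature microRNA. Of 42 tested microRNA genes 7 were higher and 4 lower, shares of 16.7% and 9.52% that lie below those of all genes tested. MIR399c had 53.6, 40.2 and 42.4 RPKM at low phosphate, against 0 in all 3 normal phosphate libraries (5.53 ± 0.10, limma adjusted p = 1.85e-14). Against a floor of 3 reads per library this is at least 32.9-fold higher. MIR399d had 38.0, 36.9 and 18.9 RPKM at low phosphate, against 0 in the normal phosphate libraries, which is at least 19.9-fold higher by the same floor. MIR399b had 17.5, 14.2 and 7.41 RPKM at low phosphate, against 0.363, 0 and 0 RPKM at normal phosphate (3.59 ± 0.24). MIR827 had 62.7, 49.0 and 39.0 RPKM at low phosphate, against 0, 0.292 and 0 RPKM at normal phosphate (5.53 ± 0.14). These are 3 loci of the miR399 family on 3 chromosomes and the locus of miR827. Each had at most 1 read over the 3 normal phosphate libraries. They passed the filter on mean level only through the low phosphate libraries, so the direction of their change follows from that choice.

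The mature sequences of these loci are printed because the family members share 1 seed, and because the targets and decoys are read against them. They were taken from the RefSeq annotation of TAIR10.1, 5′ to 3′, with the seed (bases 2 to 8) in capitals.
ath-miR399b: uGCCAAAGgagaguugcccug
ath-miR399c-3p: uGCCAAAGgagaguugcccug
ath-miR399d: uGCCAAAGgagauuugccccg
ath-miR827: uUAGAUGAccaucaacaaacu

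The targets and decoys were searched for the best match to miR399d or miR827. Sites are printed 5′ to 3′ on the strand of the gene, with bases that pair with the microRNA in capitals. The PHO2 site (chr2:14281884-14281904, minus strand) lies in the annotated 5′ UTR and pairs 19 of 21 bases; it is the best of 5 sites with at most 4 mismatches. The NLA site (chr1:635401-635421, plus strand) lies in the annotated 5′ UTR and pairs 20 of 21 bases with miR827. The sites of IPS1 (chr3:3051224-3051247, plus strand) and AT4 (chr5:895149-895172, plus strand) pair 17 of 21 bases with miR399d and carry 3 extra bases opposite its middle. The reference places both in an annotated coding sequence, although both RNAs are known as non-coding.
PHO2: ttGGGCAAATCTCCTTTGGCA
IPS1: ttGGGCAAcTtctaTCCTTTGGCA
AT4: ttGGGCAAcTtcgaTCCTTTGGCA
NLA: tGTTTGTTGATGGTCATCTAA

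PHO2, the ubiquitin-conjugating enzyme that miR399 targets, had 48.8, 46.6 and 49.9 RPKM at low phosphate, against 64.7, 76.3 and 58.3 RPKM at normal phosphate (log2 -0.44 ± 0.10, limma adjusted p = 0.002). NLA, the ubiquitin ligase that miR827 targets, had 9.30, 8.53 and 8.66 RPKM at low phosphate, against 21.2, 19.3 and 19.8 RPKM at normal phosphate (-1.10 ± 0.08, limma adjusted p = 6.37e-08). Both fell without overlap of the groups, and by far less than the microRNA genes rose. The decoy AT4 (AT5G03545) had 2439, 2064 and 1939 RPKM at low phosphate, against 52.1, 49.1 and 72.1 RPKM at normal phosphate (5.21 ± 0.18). Per length, AT4 was the more abundant decoy at both phosphate levels, while IPS1 changed more. MIR156a, a microRNA of developmental timing, was also higher, with 7.52, 6.41 and 4.07 RPKM at low phosphate against 0.398, 0 and 1.38 RPKM at normal phosphate (2.20 ± 0.29). Reads of MIR156a numbered 43 at low phosphate and 4 at normal phosphate. Its normal phosphate mean of 0.593 RPKM lay below the floor of 3 reads per library, 1.28 RPKM. Of 8 tested SPL genes, the family that miR156 targets, SPL6 was called, and it was lower (-0.27 ± 0.08). This share of 12.5% lay below the 21.6% of all genes tested that were lower. The call of SPL6 was lost without low phosphate replicate 3 (limma adjusted p = 0.0557) or normal phosphate replicate 3 (0.0503). With median-ratio size factors SPL10 (-0.20) and SPL11 (-0.24) were also lower.

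The regulators of the pathway divided into strongly raised SPX genes and nearly level PHR genes. In the list of phosphate sensing and signalling, 14 of 27 tested genes were higher and 7 lower, 9 and 2 of them by at least 1, and the list median was 0.30 against 0.02 for all genes tested. SPX2 averaged 97.8 RPKM at low phosphate and 17.5 RPKM at normal phosphate (2.42 ± 0.07). PHR1 itself, the master factor, had 32.6, 33.1 and 31.2 RPKM at low phosphate, against 35.3, 32.4 and 33.3 RPKM at normal phosphate, and the groups overlapped (-0.06 ± 0.05, limma adjusted p = 0.38). Its relative PHL1 was lower by 0.20, a call lost with the replicate number as a block (limma adjusted p = 0.0587), and AT3G24120, a homeodomain-like protein, higher by 0.39. PHF1, which lets phosphate transporters leave the endoplasmic reticulum, was higher by 1.73. The HRS1/HHO repressors, which link nitrate and phosphate signals, did not move together: HHO2 was higher by 1.38 and HHO3 by 1.08, and HRS1 was lower by 1.35 and HHO1 by 0.80.

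P1BS, the element bound by PHR1, was counted in the 300 bases before each annotated gene start. The motif GNATATNC reads the same on both strands. It was present in 16 of the 32 genes higher by 4 or more. The share was 20.8% of the 183 genes higher by 2 to 4, 13% of the 630 nuclear genes higher by 1 to 2 and 7.95% of the 3749 higher by less than 1. It was 5.80% of the 10177 genes not called, between 5.28% and 8.51% in the 3 classes of genes called lower, and 6.63% of all 18856 nuclear genes with a window. The share thus fell step by step with the size of the rise. Among lowered genes it was highest, 8.51%, in the 94 genes lower by 2 or more, and below the level of all genes in the others. Over 1000 bases the order was the same among the raised genes, at 71.9%, 41.5%, 28.7% and 22.8%, against 20.5% of all genes. The 94 genes lower by 2 or more, at 25.5%, lay above the genes higher by less than 1. At least 2 copies within 1000 bases were found in 53.1% of the 32 genes, 7.45% of those 94 genes and 2.85% of all genes. Other elements of the same windows showed no such order. The W-box core TTGAC, on either strand, stood in 53.1% of the 32 genes and 50.4% of all genes. It stood in 59.6% of genes lower by 2 or more. The G-box CACGTG stood in 3.12% of the 32 genes and 7.92% of all genes. Its share was 11.4% of genes higher by 1 to 2 and 10.2% of those higher by less than 1. Among genes called lower it was 6.04% to 6.56%. By gene list, P1BS was present within 300 bases in 7 of 18 genes of membrane lipid remodelling (38.9%), 7 of 21 purple acid phosphatases (33.3%), 8 of 27 genes of phosphate sensing and signalling (29.6%) and 3 of 22 phosphate transporters and exporters (13.6%). A motif match is a description of the sequence and no measure of binding.

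**Figure D3:**
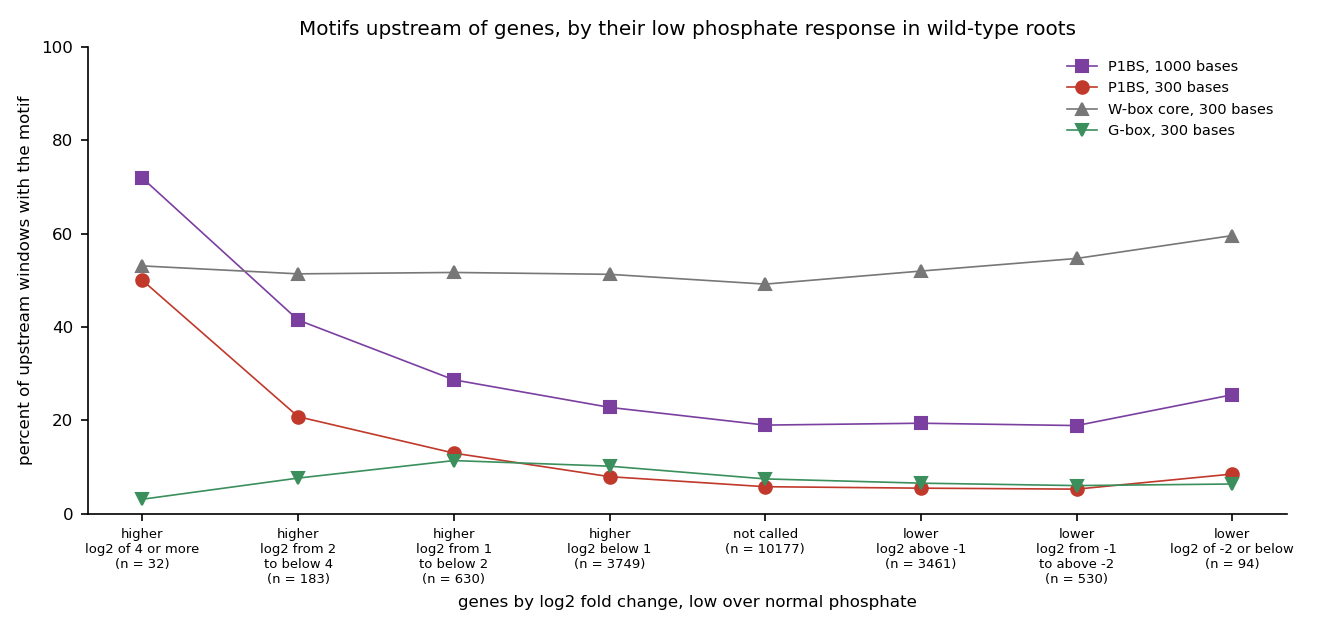
Percent of upstream windows that hold a motif (y axis) in genes grouped by call and log2 fold change, low over normal phosphate, from the most raised to the most lowered (x axis, n in brackets). The P1BS share falls from 16 of 32 windows of 300 bases and 71.9% of windows of 1000 bases at the left end toward the level of genes not called, and the W-box and G-box lines show no such slope.

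Of the 12 most raised genes, SPX3, PS2, AT3G25240, MIR827 and MIR399c carried P1BS within 300 bases. The 40 bases around their copy nearest the gene are printed to show the element in place (TAIR10.1, 5′ to 3′ on the strand of the gene, the element in capitals). AT3G25240 and MIR827 each had 3 copies in the window, and SPX3 had 2.
SPX3 (chr2:18606304-18606343, plus strand): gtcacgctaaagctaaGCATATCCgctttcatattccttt
PS2 (chr1:27466542-27466581, minus strand): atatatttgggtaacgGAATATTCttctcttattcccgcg
AT3G25240 (chr3:9192396-9192435, plus strand): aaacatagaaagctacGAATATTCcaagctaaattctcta
MIR827 (chr3:22122986-22123025, minus strand): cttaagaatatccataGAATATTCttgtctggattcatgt
MIR399c (chr5:24962276-24962315, plus strand): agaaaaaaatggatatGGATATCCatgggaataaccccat
PECP1 and IPS1 had no copy within 300 bases and 2 copies each within 1000 bases, OCT1 and SPX1 had 1 each within 1000 bases, and MGD3, AT2G45135 and AT5G20790 had none there.

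Phosphate transporters and exporters were called mostly higher where they were called at all. Of 22 tested 11 were higher, 3 lower and 8 not called, and 10 of the rises were of at least 1. PHT1;4, a high-affinity importer of the plasma membrane, had 324, 251 and 256 RPKM at low phosphate, against 25.2, 25.4 and 24.4 RPKM at normal phosphate (3.41 ± 0.09). PHT1;5 was higher by 4.18, PHT1;8 by 3.51 and PHT1;9 by 2.34. PHT1;7 had 7.83, 6.89 and 6.61 RPKM at low phosphate, against 0 in the normal phosphate libraries, which is at least 90.5-fold higher. PHT1;1, a major importer of the same family, had 292, 211 and 257 RPKM at low phosphate, against 222, 240 and 241 RPKM at normal phosphate, and the groups overlapped (0.10 ± 0.11, limma adjusted p = 0.5). PHT1;2 was higher by 4.07, but it is a near copy of PHT1;1, so the split of reads between them is uncertain. G3Pp1, a glycerol 3-phosphate transporter, had 214, 184 and 177 RPKM at low phosphate, against 13.1, 11.6 and 12.2 RPKM at normal phosphate (3.85 ± 0.09). The xylem loader PHO1 did not pass (0.06 ± 0.07, limma adjusted p = 0.481), whereas its homolog PHO1;H1 averaged 42.7 RPKM at low phosphate and 5.95 RPKM at normal phosphate (2.65 ± 0.08). The carriers PHT2;1 and PHT4;4, which are known from plastids, were lower by 0.99 and 0.87.

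Membrane lipid remodelling was raised almost throughout. Of 18 tested genes 16 were higher, all by at least 1, and the list median was 2.93. MGD3, a galactolipid synthase of the outer plastid envelope, had 145, 122 and 125 RPKM at low phosphate, against 0.407, 0.107 and 0.235 RPKM at normal phosphate (6.73 ± 0.10). SQD2, the last enzyme of sulfolipid synthesis, had 411, 297 and 299 RPKM at low phosphate, against 10.8, 10.9 and 9.35 RPKM at normal phosphate (4.88 ± 0.11). PLDZ2, a phospholipase D, had 36.4, 33.7 and 34.0 RPKM at low phosphate, against 0.529, 0.396 and 0.418 RPKM at normal phosphate (4.62 ± 0.08). The summed level of the list was 2620 to 3330 RPKM at low phosphate and 162 to 175 RPKM at normal phosphate. The paralog PLDZ1 (-0.03 ± 0.08) and the lipin PAH2 (0.11 ± 0.07) were the 2 members that did not pass. The 3 phosphoethanolamine methyltransferases, which make the phosphocholine head group, parted ways. XPL1 had 133, 158 and 132 RPKM at low phosphate, against 54.8, 52.8 and 41.3 RPKM at normal phosphate (1.49 ± 0.10), and PMEAMT was lower by 0.59. AT1G73600 had 3.31, 4.7 and 4.99 RPKM at low phosphate, against 68.7, 73.1 and 60.3 RPKM at normal phosphate (-3.69 ± 0.12, limma adjusted p = 1.13e-11).

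Enzymes that release phosphate from organic compounds were called in both directions, more often higher. Of 21 tested purple acid phosphatases 13 were higher, 11 by at least 1, and 4 lower, with a median of 1.00. PAP17 had 293, 235 and 206 RPKM at low phosphate, against 10.6, 9.47 and 10.6 RPKM at normal phosphate (4.44 ± 0.11). PAP23 had 12.4, 10.4 and 11.5 RPKM at low phosphate, against 0 at normal phosphate, which is at least 106-fold higher. AT2G27190, annotated as purple acid phosphatase 12, averaged 172 RPKM at low phosphate and 32.3 RPKM at normal phosphate (2.37 ± 0.07). PAP26, a major phosphatase of the vacuole, was lower by 0.29. Of 8 tested genes of nucleic acid salvage 6 were higher and 1 lower: the ribonuclease RNS1 averaged 24.4 RPKM at low phosphate and 5.08 RPKM at normal phosphate (2.08 ± 0.15), and the nuclease BFN1 and the ribonuclease RNS2 were higher by 1.33 and 1.03. In inositol phosphate synthesis, whose products are ligands of SPX proteins, 3 of 10 genes were higher and 6 lower, with a median of -0.22. Of the 6, AT3G01310 (-0.19 ± 0.07) lost its call in the fits without low phosphate replicate 2 (limma adjusted p = 0.106) or 3 (0.127) and without normal phosphate replicate 2 (0.0781), 3 (0.118) or 4 (0.0887). The kinase genes IPK1 (-0.41), IPK2A (-0.26) and IPK2B (-0.34) and the myo-inositol synthase genes MIPS2 (-0.92) and MIPS3 (-0.95) were lower, and AT5G15070 (0.85), MIPS1 (0.41) and VTC4, an inositol and galactose phosphatase (2.04 ± 0.06), were higher.

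**Figure D4:**
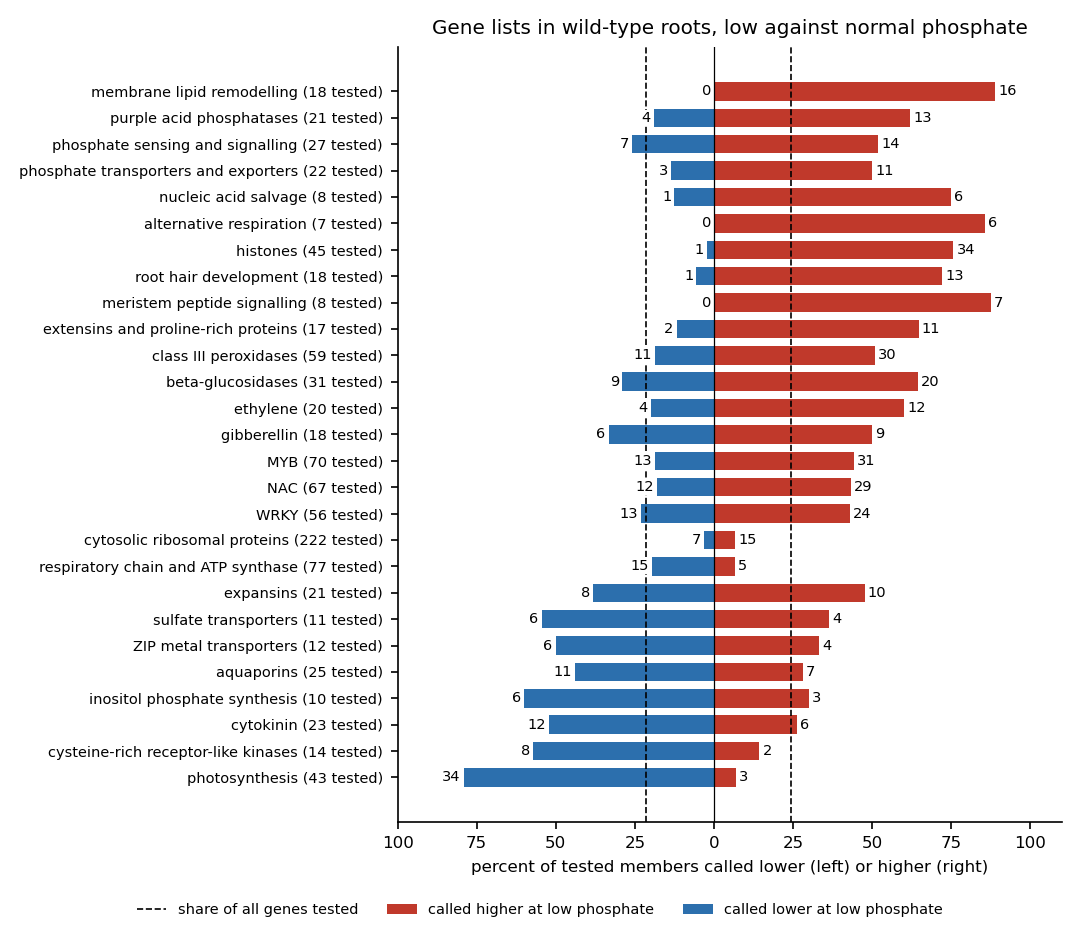
Percent of the tested members of 27 gene lists called higher (red, to the right) or lower (blue, to the left) at low phosphate in wild-type roots, with the number of genes at the bar's end and the shares of all tested genes, 24.3% and 21.6%, as dashed lines. Membrane lipid remodelling reaches 88.9% higher, photosynthesis 79.1% lower, and cytosolic ribosomal proteins stay below both lines.

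The genes that gained most reads were not all phosphate genes. By difference in mean RPKM the largest gain was AT2G05510, a glycine-rich protein, with 3290, 3202 and 2967 RPKM at low phosphate, against 109, 131 and 118 RPKM at normal phosphate (4.72 ± 0.08). ATTI4, a small defensin-like protein named as a trypsin inhibitor, had 2394, 2163 and 2049 RPKM at low phosphate, against 242, 224 and 287 RPKM at normal phosphate (3.13 ± 0.09). OSM34, an osmotin-like defence protein, had 1994, 1614 and 1671 RPKM at low phosphate, against 634, 571 and 736 RPKM at normal phosphate (1.44 ± 0.10). These 3 genes, AT4, IPS1 and SPX1 made up the 6 largest gains. The 6 largest losses were of PYK10, GSR2, AT3G16420, GAPC2 and 2 genes with steep falls described below, AT2G36255 and GSTF14. PYK10, a beta-glucosidase of the endoplasmic reticulum bodies of roots, had 5133, 4363 and 4566 RPKM at low phosphate, against 9085, 8409 and 9946 RPKM at normal phosphate (-0.96 ± 0.12, limma adjusted p = 9.5e-06). GSR2, a cytosolic glutamine synthetase, had 402, 442 and 461 RPKM at low phosphate, against 1922, 2192 and 2055 RPKM at normal phosphate (-2.24 ± 0.07). GAPC2, a glycolytic dehydrogenase, had 959, 921 and 953 RPKM at low phosphate, against 1630, 1663 and 1667 RPKM at normal phosphate (-0.81 ± 0.07). AT3G16420, a jacalin-related lectin known to bind PYK10, averaged 1540 RPKM at low phosphate and 2574 RPKM at normal phosphate (-0.74 ± 0.10). Beta-glucosidases as a family did not share the fall of PYK10: 20 of 31 tested were higher and 9 lower, and BGLU21 averaged 679 RPKM at low phosphate and 169 RPKM at normal phosphate (1.99 ± 0.11). BGLU21 and BGLU22 are close copies, so the split between them is uncertain.

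The largest falls were steep and included 2 defensin-like genes. AT2G36255, a putative defensin-like gene, had 7.67, 12.2 and 17.6 RPKM at low phosphate, against 677, 730 and 1283 RPKM at normal phosphate (-6.06 ± 0.31, limma adjusted p = 1.18e-09). AT4G11393, another defensin-like gene, had 0.771, 1.48 and 0.626 RPKM at low phosphate, against 41.0, 49.0 and 111 RPKM at normal phosphate (-5.00 ± 0.38). In both, normal phosphate replicate 4 was well above the other 2 libraries of its group, and all 3 stood clear of the low phosphate libraries. The list of defensin-like and low-molecular-weight cysteine-rich peptides, which holds neither gene, went the other way. Of its 6 tested members 4 were higher and 0 lower, with a median of 0.89. EARLI1, a lipid transfer protein of the cell wall, had 4.86, 4.55 and 2.69 RPKM at low phosphate, against 171, 183 and 194 RPKM at normal phosphate (-5.22 ± 0.15). GSTF14, a glutathione S-transferase, had 16.4, 19.0 and 36.5 RPKM at low phosphate, against 789, 714 and 846 RPKM at normal phosphate (-5.05 ± 0.20). AT2G28780, annotated as a subunit of an efflux pump, had 1.10, 1.44 and 2.22 RPKM at low phosphate, against 39.9, 45.8 and 40.4 RPKM at normal phosphate (-4.08 ± 0.13). Each of these 3 groups of libraries was tight relative to the gap between them. The rest of the 12 were AT1G73600, the uncharacterized AT2G22122 (-3.58), the serine carboxypeptidase-like gene scpl31 (-3.47), the non-coding RNA genes AT1G67105 (-3.45) and AT5G07995 (-3.43), the glycine-rich gene GRP3S (-3.20) and AT2G36690, an oxygenase (-3.13). GRP3S fell while the glycine-rich AT2G05510 rose.

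A few genes were listed at 0 in all 3 libraries of a phosphate level. The filter on mean level admitted such genes only through the libraries in which they were expressed, so the direction of their change follows from their choice. The filter likewise admitted genes that averaged below 1 RPKM at a phosphate level only through other libraries. Examples are PLDZ2 (0.448 RPKM), PHT1;5 (0.183 RPKM) and PHT1;8 (0.305 RPKM) at normal phosphate and AT4G11393 (0.959 RPKM) at low phosphate. There were 13 tested genes at 0 at normal phosphate, and the most abundant at low phosphate were MIR399c, MIR399d, PAP23, the non-coding RNA gene AT1G08947, the vacuolar aquaporin gene TIP1;3 and PHT1;7. TIP1;3 had 9.67, 7.88 and 7.13 RPKM at low phosphate, which is at least 57.5-fold higher. ZIP12, a zinc transporter gene 620 bases from MIR399c, had 4.89, 5.13 and 3.96 RPKM at low phosphate, which is at least 49.5-fold higher. There were 3 tested genes at 0 at low phosphate. IRT1, the main iron importer of the root, had 0 at low phosphate, against 4.29, 5.02 and 2.24 RPKM at normal phosphate, which is at least 38.6-fold lower. AT2G36260, annotated to iron-sulfur cluster synthesis and 821 bases from AT2G36255, had 0 at low phosphate, against 5.82, 5.60 and 10.4 RPKM at normal phosphate, at least 31.4-fold lower. The microRNA gene MIR8168 was at 0 at low phosphate, against 3.63, 2.55 and 0 RPKM at normal phosphate, so its groups overlapped, and the call was lost without normal phosphate replicate 2 or replicate 3.

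Carbon and energy genes shifted in selected steps. Phosphoenolpyruvate carboxylase feeds carbon into organic acids and bypasses the pyruvate kinase step of glycolysis. Its genes PPC1 (1.19 ± 0.06) and PPC2 (1.39 ± 0.07) were higher, and its activating kinase PPCK1 had 169, 143 and 128 RPKM at low phosphate, against 26.7, 29.8 and 30.0 RPKM at normal phosphate (2.30 ± 0.08). PPC3 overlapped between the groups (-0.14 ± 0.11, limma adjusted p = 0.32). The mitochondrial citrate synthase gene CSY4 was lower by 0.68, and the efflux carriers ALMT1 for malate and MATE, annotated to the MATE efflux family, were lower by 0.32 and 1.34. In the whole list of organic acid synthesis and release 5 of 13 were higher and 5 lower. Of 7 tested genes of alternative respiration, which bypasses ATP-forming steps, 6 were higher, with a median of 0.45; the alternative oxidase AOX1D averaged 5.65 RPKM at low phosphate and 0.992 RPKM at normal phosphate (1.79 ± 0.20). The phosphorylating respiratory chain and ATP synthase had 5 of 77 higher (6.49%) and 15 lower (19.5%), the share of falls lying near the 21.6% of all genes tested. In starch synthesis 6 of 10 genes were higher, led by the granule-bound synthase GBSS1 (1.31 ± 0.11). Of the 6, APL1 lost its call without low phosphate replicate 2 (limma adjusted p = 0.0619) or normal phosphate replicate 2 (0.0658) or 3 (0.0507), SS4 without low phosphate replicate 4 (0.0751) or normal phosphate replicate 3 (0.0656), and SS1 without normal phosphate replicate 3 (0.0521). In the same list the plastid glucose 6-phosphate importer GPT1 was lower by 0.46. Among trehalose 6-phosphate enzymes 6 of 17 were higher (35.3%) and 5 lower (29.4%), with TPPD at 1.51 and TPPH at -2.03. The sugar exporter SWEET14 had 17.6, 16.7 and 17.1 RPKM at low phosphate, against 2.37, 1.65 and 1.46 RPKM at normal phosphate (2.69 ± 0.14), and the phloem loader SUC2 averaged 62.2 RPKM at low phosphate and 16.2 RPKM at normal phosphate (1.88 ± 0.10).

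Chromatin and translation genes behaved differently from each other. Of 45 tested histone genes 34 were higher (75.6%) and 1 lower, with a median of 0.48, though only 3 were higher by at least 1. HIS1-3, the linker histone known to respond to drought, had 252, 193 and 207 RPKM at low phosphate, against 10.4, 15.3 and 14.3 RPKM at normal phosphate (3.94 ± 0.16). The summed histone level was 4890 to 5270 RPKM at low phosphate and 3400 to 3610 RPKM at normal phosphate. Many histone and ribosomal protein genes are near copies of each other, so single members are uncertain. Of 222 tested genes of cytosolic ribosomal proteins only 15 were higher and 7 lower, shares of 6.76% and 3.15% that lie below those of all genes tested, and their changes ran from -0.82 to 0.78. Their summed level, 53400 to 68500 RPKM at low phosphate and 54300 to 61200 RPKM at normal phosphate, overlapped between the groups. Of 56 tested small nucleolar RNA genes, which guide ribosomal RNA modification, 1 was higher (1.79%) and 8 were lower (14.3%). Both shares also lie below those of all genes tested. Of 29 tested autophagy genes 10 were higher and 2 lower, led by ATG8H, which averaged 88.5 RPKM at low phosphate and 37.0 RPKM at normal phosphate (1.23 ± 0.09).

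Most root hair genes were higher. Of 18 tested 13 were higher, 6 by at least 1, 1 was lower and 4 were not called, with a median of 0.81. ETC1, a MYB-like regulator of hair patterning, had 23.4, 21.0 and 20.3 RPKM at low phosphate, against 3.96, 3.09 and 2.25 RPKM at normal phosphate (2.48 ± 0.15). RHD6, which starts hair outgrowth, had 16.6, 18.2 and 19.3 RPKM at low phosphate, against 7.66, 7.14 and 6.15 RPKM at normal phosphate (1.25 ± 0.10). PRP3, a proline-rich wall protein of hairs, had 74.6, 38.3 and 54.6 RPKM at low phosphate, against 14.2, 14.8 and 13.3 RPKM at normal phosphate, and varied more among the low phosphate libraries (1.86 ± 0.17). The oxidase RBOHC, which drives hair tip growth, was lower by 0.30, and its call was lost without low phosphate replicate 3 (limma adjusted p = 0.0799) or normal phosphate replicate 3 (0.0596). Of 8 tested genes of the stem cell niche and its peptide signals 7 were higher, by 0.33 to 0.60, among them WOX5 (0.60 ± 0.10) and CLE14 (0.50 ± 0.08). Without low phosphate replicate 4 the calls of SCR (limma adjusted p = 0.136), PLT1 (0.0554) and PLT2 (0.0517) were lost; that of PLT1 was also lost without low phosphate replicate 3 (0.0568) or normal phosphate replicate 4 (0.0554), and that of SCR without normal phosphate replicate 2 (0.147).

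Wall gene families differed in their counts. Of 17 tested extensins and proline-rich proteins 11 were higher (64.7%) and 2 lower (11.8%), with a median of 0.77. Of 37 arabinogalactan proteins 16 were higher (43.2%) and 8 lower (21.6%, the share of all genes tested). PRP1, a proline-rich protein, was higher by 2.28 and LRX6, a leucine-rich repeat extensin, lower by 1.04. Of 21 tested expansins 10 were higher (47.6%) and 8 lower (38.1%), 5 in each direction by at least 1. EXLB1 had 300, 291 and 216 RPKM at low phosphate, against 28.6, 26.8 and 25.7 RPKM at normal phosphate (3.25 ± 0.10). EXPA15 had 89.0, 90.2 and 80.4 RPKM at low phosphate, against 331, 344 and 305 RPKM at normal phosphate (-1.90 ± 0.07), and EXPB3 was lower by 1.69. The summed expansin level was 874 to 1010 RPKM at low phosphate and 1220 to 1330 RPKM at normal phosphate. Among xyloglucan endotransglucosylases, which cut and rejoin wall polymers, 12 of 27 were higher (44.4%) and 9 lower (33.3%). XTR6 was at 1.13 and XTH31 at -1.67. Class III peroxidases leaned upward, with 30 of 59 higher and 11 lower. Of these, PER59 averaged 48.7 RPKM at low phosphate and 4.69 RPKM at normal phosphate (3.10 ± 0.13). In phenylpropanoid and lignin synthesis 9 of 17 genes were higher and 3 lower, with changes of -0.99 to 0.67.

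Hormone genes were called in both directions. Cytokinin is a hormone that reports the nutrient supply of the root to the shoot. Of 23 tested cytokinin genes 12 were lower (52.2%) and 6 higher (26.1%, near the 24.3% of all genes tested), with a median of -0.32. CYP735A2, which makes the trans-zeatin form, had 3.02, 4.25 and 3.68 RPKM at low phosphate, against 22.5, 26.8 and 24.6 RPKM at normal phosphate (-2.47 ± 0.14). The synthesis gene IPT3 had 2.53, 2.57 and 2.94 RPKM at low phosphate, against 12.3, 10.8 and 10.4 RPKM at normal phosphate (-1.73 ± 0.10). The response regulator ARR7 had 11.4, 10.6 and 13.5 RPKM at low phosphate, against 43.7, 41.5 and 36.8 RPKM at normal phosphate (-1.70 ± 0.09). The degrading oxidase CKX4 was lower too (-1.90 ± 0.13), and the response regulator ARR3 was higher by 1.28. In the strigolactone list 4 of 8 tested genes were higher and 3 lower. The receptor D14 had 64.4, 62.5 and 54.6 RPKM at low phosphate, against 21.3, 19.8 and 19.2 RPKM at normal phosphate (1.54 ± 0.07), and LBO (1.03), MAX1 (0.49) and MAX2 (0.41) were higher. The repressors SMXL6 (-0.53), SMXL7 (-0.43) and SMXL8 (-1.13) were lower. The synthesis gene CCD8 did not pass (-0.05 ± 0.11), and CCD7 and D27, both below the minimum for testing, averaged 0.106 and 0.0602 RPKM at low phosphate and 0.340 and 0.305 RPKM at normal phosphate. Of 18 tested gibberellin genes 9 were higher and 6 lower: the inactivating oxidase GA2OX4 (1.61 ± 0.12) and the repressor GAI (1.29 ± 0.06) were higher, and the activating oxidases GA3OX1 and GA3OX2 were lower by 0.60 and 1.46. Of 20 tested ethylene genes 12 were higher and 4 lower, with a median of 0.27, led by the response factor ERF1 (1.77 ± 0.17) and the synthase ACS7 (1.32 ± 0.11). In auxin synthesis, transport and response 7 of 20 were higher and 4 lower. The share higher lay above the 24.3% of all genes tested, and the share lower near their 21.6%. The list median was 0.03, against 0.02 for all genes tested, and turned negative in some fits with a library left out. LBD16 (0.95 ± 0.09) and the synthesis genes YUC8 (0.81 ± 0.07) and TAA1 (0.77 ± 0.10) were higher. The synthesis gene TAR2 (-1.36 ± 0.09) and the importer LAX3 (-0.72 ± 0.06) were lower.

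The MYB, NAC, WRKY and ERF families had larger shares called higher than all genes tested, and shares called lower near those of all genes. Called higher were 44.3%, 43.3%, 42.9% and 43.4% in this order, against 24.3% of all genes tested. Called lower were 18.6%, 17.9%, 23.2% and 24.5%, against 21.6%. Of 70 tested MYB genes 31 were higher and 13 lower, of 67 NAC genes 29 and 12, of 56 WRKY genes 24 and 13, and of 53 ERF genes 23 and 13. Rises of at least 1 numbered 13, 9, 7 and 9 in the same order, against 2, 1, 1 and 4 falls. CRF8, a cytokinin response factor of the ERF family, had 74.8, 62.0 and 55.0 RPKM at low phosphate, against 11.3, 12 and 12.1 RPKM at normal phosphate (2.33 ± 0.09). AT3G15500, a stress-related NAC factor, had 12.1, 14.4 and 11.7 RPKM at low phosphate, against 1.27, 0.905 and 1.39 RPKM at normal phosphate (2.65 ± 0.11). WRKY45, known to activate PHT1;1, had 38.9, 34.9 and 30.5 RPKM at low phosphate, against 7.5, 6.5 and 8.62 RPKM at normal phosphate (2.07 ± 0.13). MYB305 (2.06 ± 0.09) and MYB112 (1.80 ± 0.11) were higher, and NAC080 was the NAC gene that fell by at least 1 (-1.85 ± 0.09). The median changes of the MYB, NAC, WRKY and ERF lists were 0.26, 0.18, 0.15 and 0.23. Of 26 tested bZIP genes 7 were higher and 10 lower, and of 20 LBD genes 5 and 8.

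Transporters of other nutrients were rearranged as well. Among 11 tested sulfate transporters 4 were higher and 6 lower. SULTR1;3, known from the phloem, had 43.0, 39.9 and 34.2 RPKM at low phosphate, against 1.36, 1.36 and 0.900 RPKM at normal phosphate (4.18 ± 0.10). The root uptake transporter SULTR1;2 had 61.4, 45.2 and 55.6 RPKM at low phosphate, against 141, 153 and 153 RPKM at normal phosphate (-1.46 ± 0.10), and its partner SULTR1;1 was lower by 1.57. AST56 had the largest fall of the list (-2.37 ± 0.10), and the vacuolar exporter SULTR4;1 was higher by 0.28. Of 12 tested ZIP metal transporters 4 were higher and 6 lower: beside ZIP12 and IRT1, ZIP2 averaged 8.81 RPKM at low phosphate and 44.8 RPKM at normal phosphate (-2.22 ± 0.10) and ZIP3 averaged 51.7 RPKM at low phosphate and 141 RPKM at normal phosphate (-1.43 ± 0.08). Of 25 tested aquaporins 7 were higher (28.0%) and 11 lower (44.0%), against 24.3% and 21.6% of all genes tested. TIP1;3 was at 3.20 and PIP1;4 at -1.15. The 5 tested genes of coumarin synthesis and release, phenolics that mobilise iron, had changes of -0.12 to 0.44 and limma adjusted p-values of 0.098 or above. Without low phosphate replicate 3, F6'H2 was higher by 0.67 (limma adjusted p = 0.0121). The main enzyme F6'H1 averaged 121 RPKM at low phosphate and 117 RPKM at normal phosphate.

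The OX3 line gave another view of the same shift in supply. Its fold changes come from 6 libraries that the wild-type fold changes do not use. Both contrasts share 1 fit and its estimate of spread, so the calls of the genotypes are not independent of each other. In OX3 47.0% of the tested genes were called. Of the 1473 wild-type genes called with a change of at least 1, 1463 were called in the same direction in OX3 and 1472 had the same sign; of all 8692 wild-type calls, small ones included, 7016 were called in the same direction in OX3. For the 1473 genes the median ratio of the OX3 to the wild-type change was 0.97. Across the 18910 genes the changes of both genotypes had a Pearson r of 0.959; genes are not independent replicates, and no p is attached. The difference between the genotypes in their response, tested as an interaction in limma, gave 0 called genes of 18910, with a smallest adjusted p of 0.379 and 1351 genes (7.14%) at an unadjusted p below 0.05. On the recovered reads limma voom also gave 0 calls, with 1284 genes at an unadjusted p below 0.05. The unadjusted count was 2599 without wild-type low phosphate replicate 2 and 884 without wild-type normal phosphate replicate 4, and 1 gene, HSP23.5, was called without OX3 low phosphate replicate 4. No gene can therefore be called particular to the wild type from these libraries.

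**Figure D5:**
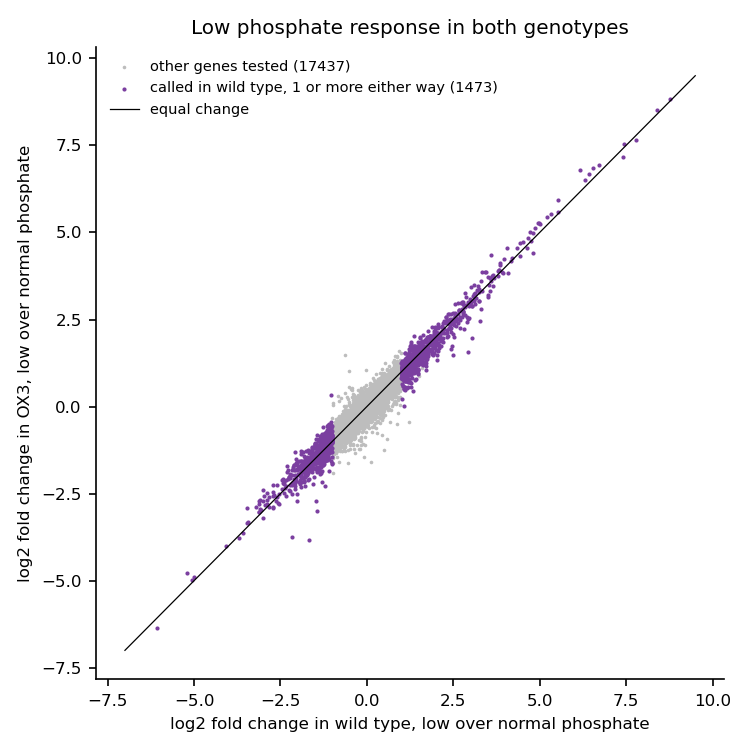
Log2 fold change, low over normal phosphate, of each of the 18910 tested genes in wild-type roots (x axis) and in OX3 roots (y axis), with the 1473 genes called in wild type at 1 or more in either direction in purple and equal change as a line. The purple points follow the line, with 1472 of 1473 of the same sign in both genotypes.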

How the data were processed

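The authors deposited 1 table of RPKM values per gene and library. The submitters' processing notes name HTSeq 0.6.0 and TAIR10, without their role; whether counting used strand is not stated. Scaling the values by exon-union length and library total gave whole reads, within 0.01 of a read, for 98.48% of the genes, and a length found from the values did so for 394 more. Genes were tested on log2(RPKM + 1) with limma 3.58.1 (R 4.3.3), 2-sided, with a trend of variance on mean and all 12 libraries in 1 fit; RPKM is not a count, so no count test was the main one. No label states that the replicates are separate plants, so the p-values reflect only how these libraries spread, possibly for technical reasons. Standard errors are limma's, from the spread among libraries; floors (3 reads per library) cover counting error only. The scripts were tested on simulated data.

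Genes were matched to TAIR10.1 by locus tag (25688 of 25941, 25682 with the same coordinates), which supplied sequences and names. The members and the 65 gene lists were chosen with earlier results of these data known. Named genes were the 12 highest and 12 lowest log2 fold changes among called genes without overlap, the 6 largest gains and losses in mean RPKM, in each list the 4 smallest adjusted p or every member of a list of 12 or fewer, and the 6 highest genes listed at 0 at the other phosphate level. Other genes named for their place in a pathway (such as PHR1, PHO2, NLA, PHT1;1 and the HHO genes) were chosen after their values were seen. Alternatives were median-ratio size factors, no filter on low values, a pseudocount of 0.1, the replicate number as a block, the wild-type libraries alone, limma voom on the recovered reads and leaving out each library.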

Additional observations from a re-analysis of the deposited data

How the results depend on the processing

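Under the alternatives the number of wild-type genes called stayed between 7087 and 9163, against 8692, and the number with a log2 change of 1 or more between 1472 and 2011, against 1473. The split of calls was 4326 higher and 4396 lower with median-ratio size factors, which turned the balance toward lower genes. The pseudocount of 0.1 and limma voom on the recovered reads raised the count of changes of at least 1 to 1962 and 2011; both shrink low genes less. Same-numbered libraries did not deviate together (correlations of -0.048, -0.055 and -0.04, against -0.086 to 0.136 for the other pairs). Deviations from means of 3 libraries are tied to each other, so this cannot show whether the samples were paired. The replicate block gave 7087 calls, 3759 higher and 3328 lower. Leaving out 1 wild-type library gave 7711 to 8437 calls. The genotype difference had 0 to 1 called genes with a library left out, the 1 being HSP23.5 without OX3 low phosphate replicate 4. Of 355 named genes 0 reversed under any of these settings; with a wild-type library left out, 37 of 2130 values lost the call and 5 gained it. The replicate block ended the calls of 8 named genes: CASP1, ZAT11, AT3G01310, RALFL33, SS4, APL1, PHL1 and RBOHC. The medians of the strigolactone, auxin, copper, expansin, xyloglucan endotransglucosylase, laccase, CLE, RALF and bZIP lists, all near 0, changed sign under at least 1 setting. Depth limits genes near 1 RPKM: 3 reads in 1 kb correspond to 0.147 to 0.170 RPKM.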

Other observations

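Nitrate transporters and the regulators of the LBD family were called in both directions. Of 37 tested NPF transporters, which carry nitrate and peptides, 11 were higher (29.7%) and 14 lower (37.8%). Of all genes tested 24.3% were higher and 21.6% lower. The summed level of the NPF list was 635 to 682 RPKM at low phosphate and 1300 to 1350 RPKM at normal phosphate. The lower members included NRT1.1, the nitrate sensor and transporter (log2 -2.16 ± 0.08, SE), and NRT1.5, a xylem loader (-2.13 ± 0.10), while NRT1.8, known to retrieve nitrate from the xylem, had 8.53, 9.80 and 13.5 RPKM at low phosphate, against 0.986, 1.37 and 1.04 RPKM at normal phosphate (2.43 ± 0.16). LBD37 (-0.75 ± 0.05) and LBD38 (-1.09 ± 0.07), known repressors of nitrogen genes, were lower. ASL9, of the same LBD family, had 4.08, 5.96 and 5.23 RPKM at low phosphate, against 36.3, 38.6 and 31.3 RPKM at normal phosphate (-2.59 ± 0.12).

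Secreted peptide genes were called in both directions. Of 9 tested RALF genes 2 were higher (22.2%) and 5 lower (55.6%). Of 18 CLE genes 6 were higher (33.3%) and 4 lower (22.2%), against 24.3% and 21.6% of all genes tested. The RALF median of -0.20 turned to 0.03 with no filter on low values, and that of the CLE genes, 0.18, to -0.04. RALF1, which restrains root growth, had 148, 128 and 134 RPKM at low phosphate, against 208, 225 and 226 RPKM at normal phosphate (-0.68 ± 0.06). Of 14 tested cysteine-rich receptor-like kinases 2 were higher and 8 lower, with CRK29 at -1.07 and CRK11 at 1.16. Detoxification families held changes in both directions. GSTU3 was higher by 2.88 where GSTF14 was lower by 5.05, and UGT86A1 was higher by 2.83 where UGT72E1 was lower by 1.87. Reads in the mitochondrial ribosomal RNA genes RRN18 (1.21 ± 0.18) and RRN26 (0.87 ± 0.14) were higher.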
